A study of Mus musculus with 3 samples.

Results

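CD4+ T cells of kidney and spleen were compared within the same Ezh2 knockout (KO) mice. The members were the barcode blocks of the first day of the deposited tag key whose leading antibody tag the key gives to a KO mouse, 2 kidney and 2 spleen blocks from 2 mice. These blocks held 3843 of the 30891 deposited barcodes. Of these barcodes, 3840 had at least 200 genes and under 10% mitochondrial counts, 107 fell in 2 clusters led by genes of other cell types and were left out, and 3733 were summed.

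The mice were MRL/lpr, a strain that develops lupus-like nephritis. KO mice were iCD4-Cre Ezh2fl/fl, that is, both Ezh2 alleles were flanked by loxP sites and Cre fused to a tamoxifen-responsive estrogen receptor (CD4-Cre/ERT2) was driven by Cd4 sequences, so that recombination was limited to cells that had used this driver and had met the drug. The floxed littermates without Cre, Ezh2fl/fl, are set beside them where a difference between genotypes was tested and for the level of Ezh2. They also entered the fits that shared the spread over all first-day mice and the fits that left out a KO mouse. Both genotypes received tamoxifen at 300 mg/kg by gavage from 10 weeks of age (preventative) or 14 weeks (therapeutic) until 24 weeks. Which of these starts a given mouse had is not stated in the labels. The Cre strain had been backcrossed to MRL/lpr for 6 generations. Kidneys were digested with enzymes in a heated dissociator, whereas spleens were pressed through a strainer, so organ and dissociation cannot be told apart in any value below. CD4+ T cells were sorted by surface staining for T cell receptor and coreceptor proteins, tagged per mouse and organ, pooled, and read from the 5′ ends of their transcripts. The study asked, by its design text and title, how deletion of EZH2 bears on T cells of these organs, and the comparison here addresses how the 2 organs differ when Ezh2 is targeted.

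As background, naive CD4+ T cells circulate through blood and lymphoid organs with the help of the homing receptor CCR7 and the exit receptor S1PR1. T cells that settle in a non-lymphoid organ commonly carry a residency programme, with adhesion molecules, chemokine receptors and signalling regulators such as RGS1 and CREM. Ezh2 encodes the enzyme of Polycomb repressive complex 2 (PRC2), which places the repressive H3K27me3 mark on chromatin.

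The identity of every cell rests on the 15-base antibody tags, which are shown because they decide which mouse and organ each value belongs to. The matrices number the tags and the key gives their sequences without numbers, so number and sequence were paired in the key's own order, an assumption that the files do not state and on which mouse and genotype rest. All letters are read, so none is set in capitals.
HTO1, kidney of KO mouse 1: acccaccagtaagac
HTO2, kidney of KO mouse 2: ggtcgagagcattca
HTO6, spleen of KO mouse 1: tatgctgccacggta
HTO7, spleen of KO mouse 2: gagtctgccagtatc
Each of the 4 blocks was led by its own tag in 100% of its barcodes. The median count of the leading tag was 803 and 520 in the kidney blocks and 762 and 1510 in the spleen blocks, against at most 172 for the next tag in any of them. The 10 first-day blocks shared 0 barcodes with each other.

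The kidney sums held 659 and 194 cells, the first for mouse 1 and the second for mouse 2 here and throughout, and the spleen sums held 1316 and 1564. Total counts of unique molecular identifiers (UMIs) were 2576660 and 790712 in kidney and 5229984 and 6203557 in spleen. Median UMIs per cell were alike, between 3387 and 3642. The kidney of mouse 2 therefore gave the least precise values. With mouse as a block, p-values set the difference between organs against its variation between the 2 mice, not against the spread of levels between animals. That variation is mostly pooled over genes, because each gene had 1 residual degree of freedom of its own against 153 borrowed from the others. A small p-value therefore does not show that the 2 mice agreed for that gene, as Gzma and Ccl1 below illustrate.

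The targeted gene was read in every sum. Ezh2 (chr6:47530274-47595270, GRCm38) stood at 76.2 and 60.3 CPM (UMI counts relative to the library total, scaled by the trimmed mean of M values, TMM) in kidney and at 50.5 and 52.8 in spleen. Its log2 difference, kidney over spleen, was 0.43 ± 0.18 (SE), which did not pass (edgeR, adjusted p = 0.0895). Scaled together with the floxed mice, the KO sums lay at 77.2 and 60.4 in kidney and 51.1 and 53.7 in spleen, and the floxed sums at 98.8, 160 and 146 in kidney and 69.1, 171 and 151 in spleen. Of the 4 KO sums, 3 lay below all 6 floxed sums and that of the kidney of mouse 1 did not. Counts per whole gene do not show whether the floxed exons were lost, so transcript that remains was not resolved further.

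Kidney and spleen CD4+ T cells of the KO mice differed in 1681 of 10699 genes tested (15.7%; edgeR quasi-likelihood test with mouse as a block, adjusted p under 0.05, which is what "called" means below). Of these, 1146 were higher in kidney (10.7% of those tested) and 535 were lower (5%). Of the 1681 called genes, 1661 moved the same way in both mice, against 7283 of all 10699. In 1653 called genes both kidney levels lay on one side of both spleen levels, as they did in 57.5% of all genes tested. The count depended on the tool and the scaling: DESeq2 called 408, all 408 of them among the 1681, and scaling by library totals gave 828. A fit that left out a KO mouse held the other KO mouse and the floxed mice, so its spread came from the floxed mice alone. A call lost in such a fit below can therefore reflect that change of spread as well as the mouse left out. These were not separated. When all 5 first-day mice shared the spread, 1231 genes were called.

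**Figure D1:**
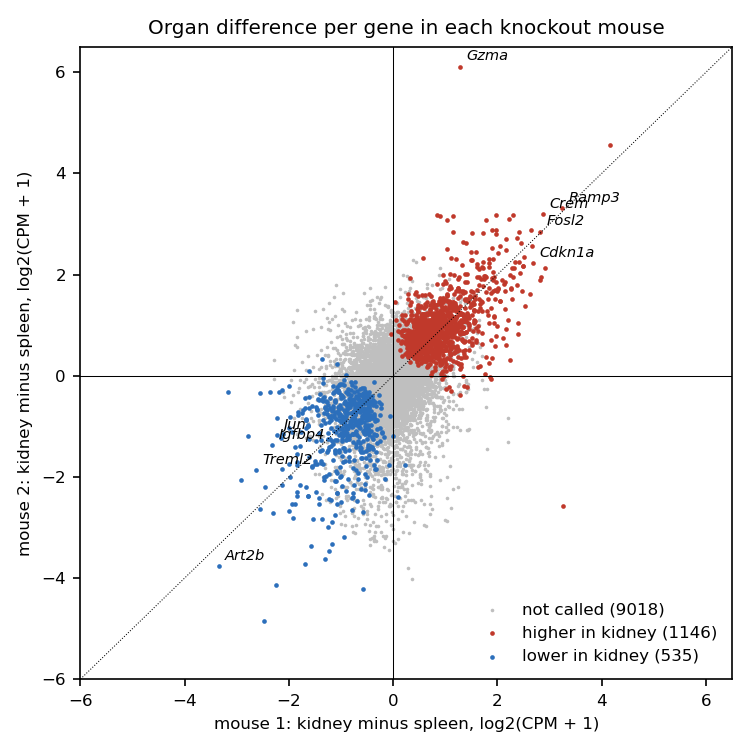
Each point is a gene; the axes give the difference between kidney and spleen, in log2(CPM + 1), in mouse 1 (horizontal) and mouse 2 (vertical), and the dotted line marks equal differences. Of the 1681 called genes, which were called from these same 2 mice, 1661 differ in the same direction in both. Gzma stands far above the line, with a larger difference in mouse 2 than in mouse 1.

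The 3 genes with the smallest p-values, all higher in kidney, encode regulators of receptor signalling and transcription. Ramp3 (chr11:6658506-6677478), which encodes an accessory protein that sets the ligand choice of calcitonin-family receptors, was at 261 and 252 CPM in kidney against 26.7 and 24.4 in spleen. Crem, which encodes a transcription factor that answers cyclic AMP, was at 257 and 325 CPM against 34.1 and 34.5. Fosl2 (chr5:32136472-32157840), an AP-1 subunit, was at 297 and 267 against 41.2 and 36.2. For these 3 genes every kidney sum lay far above every spleen sum, and the 2 mice gave nearly the same values. The log2 differences were 3.32 ± 0.16 for Ramp3, 3.07 ± 0.16 for Crem and 2.86 ± 0.15 for Fosl2 (SE; edgeR, adjusted p = 1.15e-41, 5.21e-40 and 1.88e-37). With the spread shared by 5 mice the adjusted p for Ramp3 was 9.44e-06 and for Crem 1.79e-05 (edgeR).

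Other large rises covered transport, metabolism and signalling. Abcb1b, a drug efflux pump, was at 131 and 165 CPM in kidney against 20.2 and 21.6 in spleen. Dgat1, which makes triglycerides, was at 98.5 and 112 CPM against 17.6 and 14.8, and Mpp7, a scaffold protein of cell junctions, at 252 and 242 against 55.5 and 36.2. Their log2 differences were 2.81, 2.68 and 2.44 in that order. The NAD-synthesis genes Nmnat2 and Nmrk1 were higher in kidney by 2.72 and 2.70 on the log2 scale, and Nmrk1 was at 75.0 and 45.5 CPM against 9.09 and 9.60. Cdkn1a, which encodes the cell cycle inhibitor p21, was at 281 and 153 CPM in kidney against 42.7 and 31.9 in spleen, a log2 difference of 2.51. Nrarp, a feedback inhibitor of Notch signalling, was at 46.6 and 38.8 CPM against 7.98 and 7.35. Abcb1b, Dgat1, Mpp7, Nmrk1 and Nrarp were also called under every alternative on all cell types together, whereas Cdkn1a was not when mouse 1 was left out (edgeR, adjusted p = 0.0916, within 9.57e-52 to 0.0916 over its alternatives). Nmnat2 was not called when either mouse was left out.

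The largest fitted rise among the named genes was that of Gzma, a granzyme of cytotoxic lymphocytes, and it rested on 1 sum. Gzma was at 4.12 and 110 CPM in kidney against 1.11 and 0.6 in spleen, so the kidney of mouse 2 alone was high. Its log2 difference of 5.73 ± 0.54 (SE; edgeR, adjusted p = 8.38e-18) became 1.86 without mouse 2 and 2.15 without cells that held a UMI of Cd8a or Cd8b1, and it was called in neither case, nor by DESeq2.

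**Figure D2:**
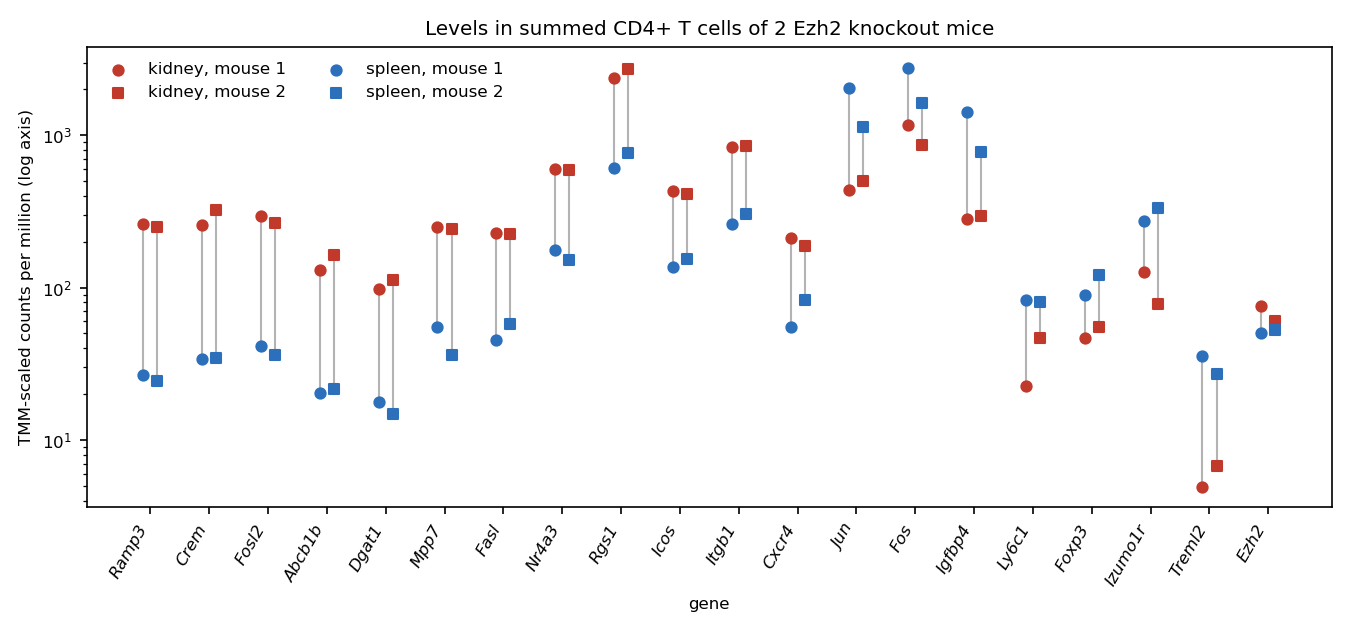
Levels of 20 genes in TMM-scaled CPM on a log axis; circles are mouse 1 and squares mouse 2, red is kidney and blue spleen, and a grey line joins the organs of a mouse. From Ramp3 to Cxcr4 both red symbols lie above both blue ones, from Jun to Treml2 below them, and for Ezh2 the symbols of mouse 2 lie close together, at 60.3 and 52.8.

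Among the genes lower in kidney, Art2b, which encodes an ADP-ribosyltransferase of the T cell surface, was at 2.06 and 4.02 CPM in kidney against 30.1 and 67.2 in spleen, a log2 difference of -3.93 ± 0.36 (SE; edgeR, adjusted p = 1.78e-18). Treml2, a receptor of the TREM family, was at 4.95 and 6.70 CPM against 35.8 and 27.0. The chemokine gene Cxcl2 was at 4.12 and 0 CPM against 23.4 and 16.6, but with the 107 cells of the left-out clusters included its difference was -0.64 and was not called (edgeR, adjusted p = 0.431, within 3.01e-10 to 0.431 over its alternatives). Igfbp4, which encodes a binding protein of insulin-like growth factors and marks naive T cells, was at 284 and 297 CPM in kidney against 1416 and 775 in spleen, a log2 difference of -1.88. The kidney values of Igfbp4 were close to each other and the spleen values were far apart. Further large falls were those of Atp1b1, a sodium pump subunit (-1.86), Fbxo17, an F-box protein (-1.85), Pdlim4, a cytoskeletal adaptor (-1.80), Srm, spermidine synthase (-1.61), and Ephx1, an epoxide hydrolase (-1.60). Without mouse 1, Treml2, Igfbp4, Fbxo17, Pdlim4, Srm and Ephx1 were not called, and without mouse 2, Srm was not.

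Genes were then grouped by function, in lists given with the number of members tested, the number called in each direction and the median log2 difference, to be read against 10.7% higher, 5% lower and a median of -0.01 over all genes. The lists and members were chosen with earlier results of these data known, so their counts and order are a description and not a test. Scaling by library totals in place of TMM moved the median of all genes to -0.17, and the numbers of members called under that scaling stand in parentheses beside each list's count, or in words. Of the 132 named genes that were called, 29 were also called under every alternative that kept all CD4+ cell types, and a call that was lost when 1 mouse was left out is named as such.

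The tissue residency list stood highest, with 12 of 16 tested members higher in kidney, 1 lower and a median of 1.49 (11 higher and 0 lower with library totals). Rgs1 and Rgs2, which damp signalling of G-protein-coupled receptors, were both higher: Rgs1 was at 2369 and 2732 CPM in kidney against 605 and 761 in spleen, and Rgs2 at 547 and 564 against 188 and 178. Bhlhe40, a transcription factor of tissue-resident and effector T cells, was at 1472 and 938 CPM against 374 and 545. Cd69, which encodes the surface marker most used for residency, was not called, at 501 and 407 CPM in kidney and 568 and 485 in spleen. Within naive-like cells alone and within cluster 1 alone, 2 groups described below, Cd69 was called lower in kidney. Itgae, the integrin chain CD103, was the member called lower in the full sums, at 44.9 and 32.1 CPM against 51.2 and 75.6. Itgae and the chemokine receptor gene Cxcr6, which was at 59.8 and 77.7 CPM in kidney against 16.0 and 14.8 in spleen, fell outside the naming rule and were chosen after their values were seen, and neither was called when either mouse was left out. Bhlhe40 was not called without mouse 1 or by DESeq2. The members Ramp3 and Crem, which were among the genes with the smallest p-values, also stood in the cyclic AMP list and are counted in both.

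**Figure D3:**
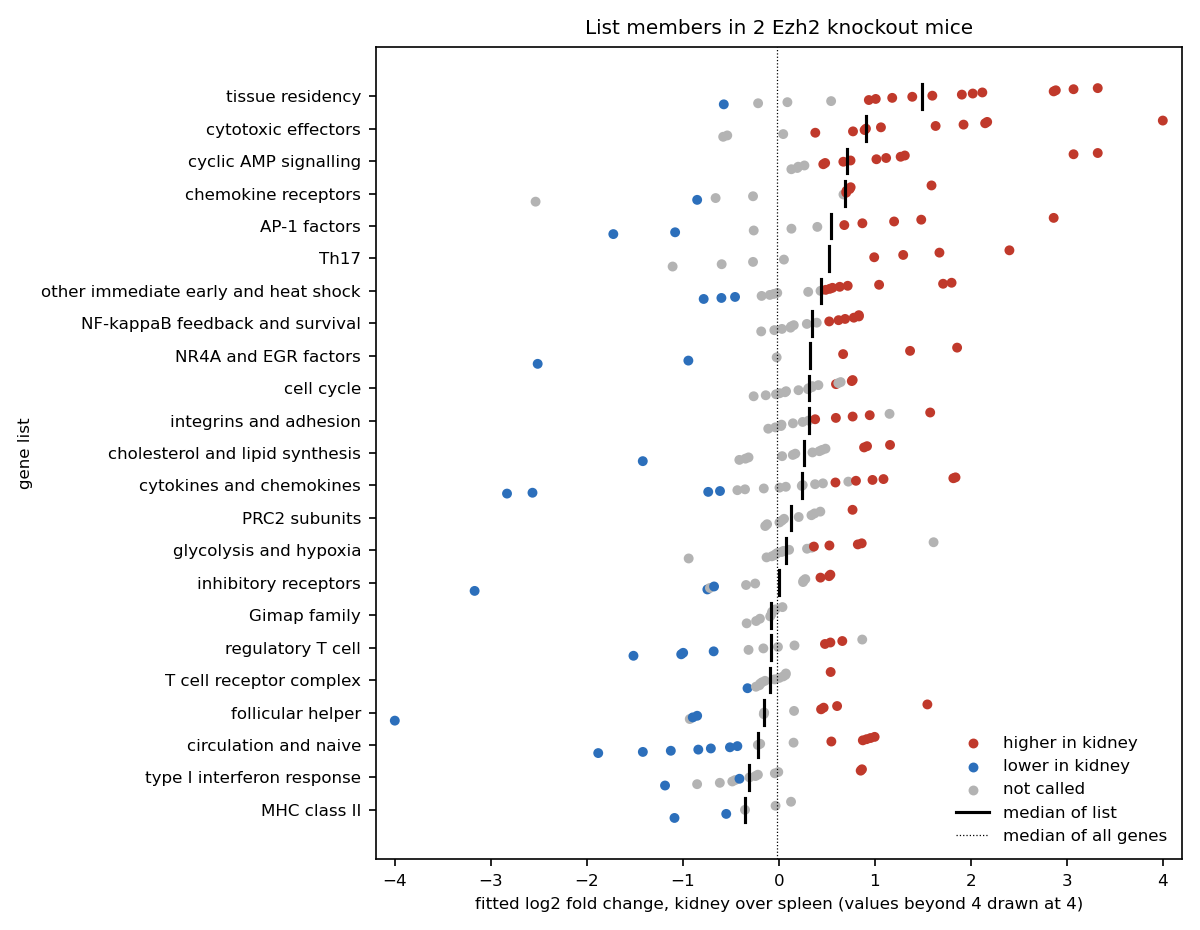
Members of 23 gene lists by fitted log2 fold change, kidney over spleen; red points were called higher in kidney, blue lower, grey not called, black bars are list medians and the dotted line is the median of all genes. The residency list has the highest median, 1.49, and the MHC class II list the lowest, -0.35.

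In the cyclic AMP list 10 of 14 members were higher in kidney and 0 were lower, with a median of 0.71 (7 and 0 with library totals). Besides Ramp3 and Crem, these included 3 phosphodiesterases, enzymes that break cyclic AMP down. Pde4b was at 479 and 430 CPM in kidney against 185 and 192 in spleen, Pde4d at 206 and 254 against 89.8 and 93.7, and Pde7a at 212 and 213 against 97.8 and 114. Adora2a, which encodes an adenosine receptor that raises cyclic AMP, was at 97.3 and 81.7 CPM against 39.0 and 45.3, a log2 difference of 1.12. The prostaglandin receptor gene Ptger4 and the phosphodiesterase gene Pde3b were not called, with log2 differences of 0.19 and 0.20. Pde7a and Adora2a were not called without mouse 1.

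Members of the AP-1 family were called in opposite directions. Fosl2, Atf3, Maff and Jund were higher in kidney, and Fosb, outside the naming rule, made 5 of 10, with 2 lower (5 and 2 with library totals). Atf3, a stress-responsive factor, was at 149 and 118 CPM in kidney against 58.3 and 37.3 in spleen, and Maff, a small Maf protein that lacks a transactivation domain, at 239 and 230 against 128 and 78.4. The founding members of the family were lower in kidney: Jun (chr4:95049036-95052222) was at 436 and 501 CPM against 2050 and 1129, and Fos (chr12:85473890-85477274) at 1172 and 869 against 2766 and 1636. Kidney and spleen values of Jun and Fos did not overlap, and their log2 differences were -1.72 ± 0.13 and -1.08 ± 0.11 (SE; edgeR, adjusted p = 1.15e-25 and 2.82e-16). The log2 difference of Jun was called under every alternative, whereas those of Fos and Jund were not called when either mouse was left out, and those of Maff and Fosb were not without mouse 2. Junb, which is read in large amounts in both organs, was not called, at 5172 and 5128 CPM in kidney and 5053 and 4371 in spleen.

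Other immediate early genes, which respond to a stimulus without new protein synthesis, were also called in both directions. Of the 6 NR4A and EGR genes 3 were higher and 2 lower (2 and 0 with library totals). The 3 Nr4a orphan nuclear receptors, which follow antigen receptor and cyclic AMP signals, were the higher ones: Nr4a3 was at 597 and 593 CPM against 178 and 151, Nr4a2 at 416 and 387 against 145 and 169, and Nr4a1 at 820 and 1034 against 733 and 451. Egr2 and Egr3, transcription factors of antigen receptor signalling, were lower, and Egr1 was not called, with a log2 difference of -0.02. Egr2 was at 13.2 and 6.70 CPM in kidney against 20.8 and 22.6 in spleen. Egr2 and Egr3 were called neither without mouse 1, nor without mouse 2, nor with library totals, and Nr4a1 was not called with library totals, by DESeq2 or without mouse 2. Of the 17 other immediate early and heat shock genes, 8 were higher in kidney and 3 lower (4 and 1 with library totals). The phosphatase genes Dusp2 and Dusp5, which switch off mitogen-activated protein kinases, were higher by 1.71 and 1.80 on the log2 scale, while their relative Dusp1 was lower, with a difference of -0.60. The chaperone gene Hsp90aa1 was at 1278 and 1560 CPM in kidney against 783 and 595 in spleen, and Hspa8 at 2972 and 3062 against 2106 and 1594. The inducible chaperone gene Hspa1b gave values that overlapped between organs, 341 and 552 CPM in kidney against 1042 and 517 in spleen, and its fall rested on mouse 1: without that mouse the difference was 0.062. Nr4a2 was not called without mouse 1, Dusp2 without mouse 2, and Dusp1, Hsp90aa1 and Hspa8 when either was left out. Nr4a3 and Dusp5 were called under every alternative.

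Promoter sequence was examined because Crem, Creb1 and Atf1, whose proteins bind the cyclic AMP response element TGACGTCA, were all called higher in kidney. Creb1 and Atf1 differed by 0.48 and 0.46 on the log2 scale, were chosen after their values were seen, and were called neither with library totals nor when either mouse was left out. RefSeq promoter windows of GRCm38.p6, from 250 bases before to 50 after a gene's start, were matched by symbol for 8342 of the 10699 genes tested, and a gene can have several windows. The palindromic letters TGACGTCA were present in 51 of 1118 windows of genes higher in kidney (4.56%), in 7 of 558 windows of genes lower in kidney (1.25%), in 3.27% of the 10655 windows of all genes tested and in 1.79% of all 32851 windows. The AP-1 letters TGANTCA, also counted on both strands and not contained in the letters of the first motif, were present in 6.35% of windows of the genes higher in kidney, 5.02% of the genes lower, 4.74% of the genes tested and 7.81% of all windows. These shares are a description of letters and were not tested. Among the 182 named genes, the windows of 130 were scanned one gene at a time. Other named genes, Crem, Egr1 and Cd74 among them, were left out of this scan. Whether their windows hold the letters is therefore not shown. Of the 130 genes scanned, 4 held TGACGTCA: Maff and Ldha, called higher (Ldha not when either mouse was left out), Dusp1, called lower, and H2-Aa, not called. Those of Maff and Dusp1, regulators of transcription and of kinase signalling that moved in opposite directions, are shown with the letters in capitals in the 100-base stretches below, which lie before the gene's start and are written 5′ to 3′ on its strand.
Maff, higher in kidney, chr15:79347420-79347519, plus strand: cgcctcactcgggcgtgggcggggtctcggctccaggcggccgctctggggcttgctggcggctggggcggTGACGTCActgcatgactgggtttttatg
Dusp1, lower in kidney, chr17:26508573-26508672, minus strand: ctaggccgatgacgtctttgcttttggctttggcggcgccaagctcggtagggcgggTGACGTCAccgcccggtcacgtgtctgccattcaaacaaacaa
The match began 29 bases before the start of Maff and 143 bases before that of Dusp1.

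The list of circulation and naive genes was split, with 5 of 15 members higher in kidney, 7 lower and a median of -0.22 (3 and 7 with library totals). Ly6c1, a surface antigen of naive and memory cells, was at 22.7 and 46.9 CPM in kidney against 83.3 and 80.9 in spleen. In contrast Ccr7, the chemokine receptor for entry into lymphoid tissue, was at 918 and 1077 CPM in kidney against 503 and 552, S1pr1 at 232 and 355 against 150 and 135, and Il7r, the survival receptor for interleukin 7, at 491 and 396 against 263 and 196. Klf2, the transcription factor that drives S1pr1, was not called, at 1891 and 2306 CPM in kidney and 2015 and 1744 in spleen. In sums of a mixed population, fewer cells of a type and less RNA per cell cannot be told apart. The shares of naive-like cells, given below, were lower in kidney, as was Ly6c1, whereas Ccr7, S1pr1 and Il7r were higher. Within naive-like cells alone, Ccr7, S1pr1 and Il7r differed by 1.26, 1.20 and 0.83, and all were called. Ccr7, S1pr1, Il7r and Ly6c1 were not called when either mouse was left out. Without the naive-like cells, 897 of 10072 genes were called (8.91%), 721 higher in kidney (7.16%) and 176 lower (1.75%). In that set 4 of these 15 members were called higher and 0 lower, Ccr7 and S1pr1 differed by 1.81 and 1.58, and Igfbp4 by -0.49, which was not called (edgeR, adjusted p = 0.171, within 1.78e-62 to 0.171 over its alternatives).

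In the list of cytotoxic effector genes 10 of 13 members were higher in kidney and 0 lower, with a median of 0.91 (6 and 0 with library totals). Without the naive-like cells 5 of 12 were higher and 1 lower, with a median of 0.54. Fasl, the death ligand, was at 227 and 224 CPM in kidney against 45.5 and 57.5 in spleen (log2 2.15 ± 0.15, SE), and Tbx21, which encodes the Th1 master regulator T-bet, at 144 and 110 against 34.9 and 32.2 (1.92 ± 0.17, SE). Klrc1, an NKG2 receptor, was at 33.8 and 26.8 CPM against 6.31 and 7.50. Perforin, Prf1, and the T-box factor Eomes were not called, with log2 differences of -0.54 and 0.05. Without the naive-like cells, Prf1 differed by -1.12 and was called lower. The share of cytotoxic-like cells, given below, was lower in kidney in each mouse. Fasl and Tbx21 were called under every alternative, and Klrc1 was not called without mouse 1.

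In a list of CD8, gamma-delta and NK cell markers, Cd8a, Cd8b1 and Klrd1 moved with these genes. The gamma-delta gene Trdc was at 1.24 and 1.34 CPM in kidney against 1.48 and 2.85 in spleen. Tcrg-C1 was at 0.412 and 1.34 against 0 and 0.15, and the NK gene Klrb1c at 0 and 0 against 0.186 and 0.3. These low genes were not tested. Cd8a was at 38.3 and 33.5 CPM in kidney against 9.09 and 21.9 in spleen, and the summed level of the 8 list genes was 98.5 and 100.4 CPM against 31.2 and 68.5, with Ncr1 and Klra8 at 0 in all 4 sums. All 3 of its tested members, Cd8a, Cd8b1 and Klrd1, were called higher in kidney, though none of them with library totals or when either mouse was left out. In sums of all cells, the 107 left-out cells included, the list stood at 224 and 206 CPM in kidney against 32.7 and 74.2 in spleen. When cells with a UMI of Cd8a or Cd8b1 were left out, Tbx21 still differed by 1.99 and Ifng by 1.05, both called, whereas Ccl5, a chemokine gene with a log2 difference of 0.59 in the full sums, differed by 0.39 and was not called (edgeR, adjusted p = 0.0541, within 5.87e-14 to 0.444 over its alternatives). Ifng and Ccl5 were not called when either mouse was left out.

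Cytokine genes were split. Tnfsf11, which encodes RANK ligand, was at 215 and 110 CPM in kidney against 40.3 and 52.8 in spleen, Tgfb1, the regulatory cytokine TGF beta 1, at 333 and 386 against 167 and 169, and Ifng, interferon gamma, at 212 and 169 against 99.7 and 123. Of 20 members, 6 were higher and 4 lower (3 and 2 with library totals). Without the naive-like cells the balance turned, with 2 of 19 higher, 7 lower and a median of -0.21, against 0.24 in the full sums. Ccl4, a chemokine of activated T cells, was not called, and its kidney values, 70.5 and 97.8 CPM, lay between its spleen values, 54.0 and 131. Il17a, the defining cytokine of Th17 cells, was at 10.3 and 28.1 CPM against 4.08 and 2.25, and 4 of 8 members of the Th17 list were higher and 0 lower (2 and 0 with library totals; 2 of 7 higher without the naive-like cells), but Il23r, the receptor that sustains these cells, and Ccr6 were not called. Tmem176b, an ion channel gene expressed in Th17 cells, was at 41.2 and 64.3 CPM in kidney against 14.8 and 17.1 in spleen. Il17a and Tgfb1 were not called without mouse 2, Il17a not with library totals, and Tnfsf11 not by DESeq2.

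Receptors for migration and adhesion rose in part. Cxcr4 was at 213 and 186 CPM in kidney against 54.7 and 82.5 in spleen, a log2 difference of 1.59, and 5 of 10 chemokine receptor genes were higher and 1 lower (1 and 0 with library totals). Cxcr5, which draws cells into B cell follicles, was lower, at 12.8 and 10.7 CPM against 18.4 and 30.2. Without the naive-like cells 1 of 10 chemokine receptor genes was higher and 1 lower. Itgb1, the shared beta chain of collagen and fibronectin receptors, was at 838 and 849 CPM in kidney against 262 and 306 in spleen. Cd44, the hyaluronan receptor, was at 314 and 275 against 153 and 153, and 5 of 13 adhesion genes were higher and 0 lower (2 and 0 with library totals). Cxcr4 and Itgb1 were called under every alternative, Cd44 was not called without mouse 1, and Cxcr5 was not when either mouse was left out.

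Genes of regulatory T cells went both ways. Foxp3 (chrX:7579676-7595243), the factor that defines the lineage, was at 47.0 and 54.9 CPM in kidney against 89.8 and 121 in spleen, a log2 difference of -1.02 ± 0.18 (SE; edgeR, adjusted p = 1.29e-06). Ikzf2, which encodes Helios, was at 192 and 110 CPM against 244 and 398, and Izumo1r, the folate receptor 4 of regulatory and anergic cells, at 127 and 77.7 against 274 and 334. Ctla4, an inhibitory receptor these cells hold in large amounts, was higher instead, at 861 and 627 CPM against 446 and 585. In all, 3 of 12 members were higher and 4 lower (0 and 2 with library totals). Without the naive-like cells, Ctla4 differed by 0.17 and was not called (edgeR, adjusted p = 0.470, within 0.000125 to 0.921 over its alternatives), while Foxp3 differed by -1.44 and was called. Ctla4 was not called when either mouse was left out, and Ikzf2 and Izumo1r were not without mouse 2.

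Follicular helper genes were also divided, with 4 of 11 higher and 3 lower (1 and 1 with library totals). Icos, a costimulatory receptor, was at 431 and 413 CPM in kidney against 136 and 154 in spleen, a log2 difference of 1.55 ± 0.14 (SE). Sostdc1, a secreted antagonist made by follicular T cells, was at 35.8 and 41.5 CPM against 56.8 and 97.8. Ascl2, an early factor of the lineage, had 0 counts in both kidney sums and was at 2.78 and 6.00 CPM in spleen, so that its spleen mean was at least 4.65-fold higher than the level of 3 counts over both kidney sums. Bcl6, the master regulator of these cells, was not called, with a log2 difference of 0.16. Among inhibitory receptors 3 of 12 were higher and 3 lower (0 and 2 with library totals). Cd160 was at 1.65 and 1.34 CPM in kidney against 14.7 and 13.5 in spleen, and the values of Pdcd1 (PD-1), 115 and 84.4 CPM, overlapped those of spleen, 54.2 and 98.2. Sostdc1, Ascl2 and Pdcd1 were not called when either mouse was left out, and Cd160 was not without mouse 1.

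Of the glycolysis and hypoxia list 4 of 16 were higher in kidney and 0 lower (2 and 0 with library totals), among them Hif1a, the hypoxia-inducible factor, at 476 and 382 CPM against 219 and 255, and its median of 0.08 turned to -0.08 when sums were scaled by library totals. The cholesterol list had 3 of 14 higher, with Insig1, a sterol sensor, at 91.5 and 111 CPM against 49.2 and 39.4 in spleen, and 1 lower (3 and 1 with library totals). Of the NF-kappaB and survival list 6 of 14 were higher and 0 lower (2 and 0 with library totals), including Tnfaip3, which encodes the inhibitor A20, at 1472 and 1260 CPM against 797 and 897. The type I interferon list had 2 of 13 higher and 2 lower (2 and 2 with library totals): Isg15 was at 101 and 89.7 CPM in kidney against 58.5 and 46.6 in spleen, and Usp18, which restrains this pathway, at 11.5 and 10.7 against 26.5 and 23.9. In the cell cycle list 3 of 17 were higher and 0 lower (1 and 0 with library totals). The T cell receptor list had 1 of 12 higher and 1 lower (0 and 1 with library totals). The MHC class II list had 0 of 5 higher and 2 lower (0 and 1 with library totals), and the Gimap list 0 of 8 called (0 and 1 with library totals). Among 10 PRC2 genes tested 1 was called, also with library totals, the accessory subunit gene Aebp2, at 175 and 173 CPM in kidney against 98.9 and 106 in spleen, and the median of this list, 0.13, turned to -0.02 under library totals. Hif1a and Tnfaip3 were not called without mouse 1, nor Isg15, Usp18 and Aebp2 when either mouse was left out.

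Most genes of other cell types were low, but not all, among them Igkc, Cst3, Ighm and Ass1. Igkc was at 94.8 and 143 CPM in kidney and 114 and 172 in spleen. Cst3 was at 110 and 83.0 in kidney and 98.6 and 93.7 in spleen, and neither of these was called. Of 22 kidney tubule genes, 3 were tested, 6 were at 0 in all 4 sums, among them the defining genes Umod, Kap and Aqp2, and the summed level was 207 and 305 CPM in kidney against 206 and 205 in spleen. Most of that sum was Ass1, at 195 and 288 CPM in kidney and 183 and 177 in spleen, the only tubule member called, and not called with library totals or when either mouse was left out. The 12 B and plasma cell genes summed to 176 and 245 CPM in kidney against 271 and 406 in spleen, and Ighm was called lower, though not when either mouse was left out. The 14 myeloid genes summed to 136 and 85.7 CPM against 120 and 102, with 0 called. The 11 endothelial and stromal genes summed to 100.1 and 79.0 CPM against 102 and 101, with Kdr, Emcn and Cdh5 at 0, and the 7 erythroid and platelet genes to at most 2.10 CPM. In the endothelial and stromal list Igfbp7 was called higher and Pecam1 lower (0 and 1 with library totals), neither of them when either mouse was left out. Igfbp7 was at 40.0 and 12.1 CPM in kidney against 14.3 and 14.2 in spleen, so only the kidney of mouse 1 was high, and without mouse 1 the difference was -0.27. The part of these genes in the results was not tested.

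The makeup of the sums was described by clusters built without the list genes and without the genes called between organs. Clusters were named "-like" from fixed markers, and names rest on rebuilt clusters. Naive-like cells were 17.1% (95% Wilson interval 14.5 to 20.2) and 23.2% (17.8 to 29.6) of kidney cells, against 50.8% (48.1 to 53.5) and 35.5% (33.2 to 37.9) of spleen cells. Regulatory T-like cells were 9.10% and 7.22% in kidney against 15.1% and 27.9% in spleen. For both classes each mouse had a lower share in kidney than in spleen. Cytotoxic-like cells were few, 1 and 4 cells in kidney against 18 and 71 in spleen. Their share was also lower in kidney in each mouse, by 1.22 percentage points in mouse 1 and 2.48 in mouse 2. Follicular helper-like cells were at 8.19% and 2.06% in kidney and 5.85% and 8.12% in spleen, so the mice went opposite ways. Unnamed clusters held 64.2% and 64.4% of kidney cells against 26.1% and 23.0% of spleen cells, mostly in cluster 1, with 374 and 91 kidney cells and 223 and 208 spleen cells. Cluster 1 was led by Ifitm2, Ifitm3 and Ramp3 among others. With 2 pairs an exact two-sided permutation of signs cannot go below p = 0.5, and no test of shares was run. The intervals cover counting error only.

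**Figure D4:**
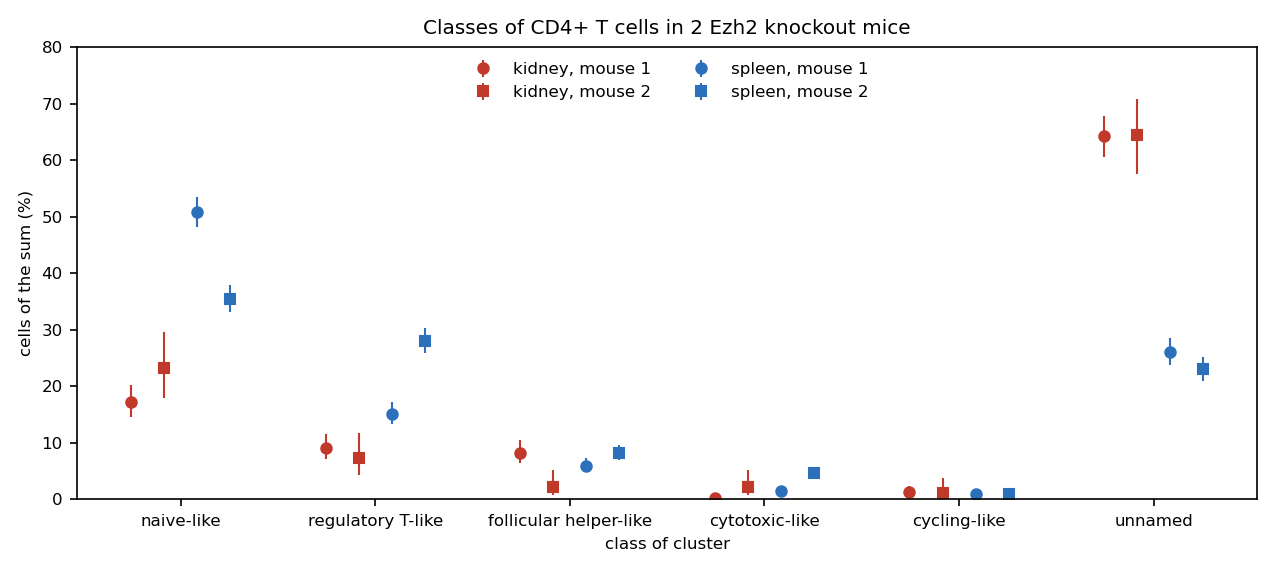
Share of cells in each class, in percent of the cells summed, with 95% Wilson intervals; circles are mouse 1, squares mouse 2, red is kidney and blue spleen. Both kidney points lie below both spleen points for naive-like and regulatory T-like cells and above them for unnamed clusters, at 64.2% and 64.4%.

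Because the shares differed, the organ comparison was repeated within single groups of cells, an alternative added after the data were seen. Naive-like cells alone, 113 and 45 in kidney against 668 and 555 in spleen, gave 861 of 8225 genes called (10.5%), 604 higher in kidney (7.34%) and 257 lower (3.12%), and 672 of them were called in the full sums too. Cluster 1 alone gave 997 of 7220 (13.8%), 713 higher (9.88%) and 284 lower (3.93%), of which 814 were shared with the full sums. The cells of both groups are also part of the full sums, so calls shared with those sums are not independent of them. Both groups come from the clustering that left out the genes called between organs. When all genes were used to cluster, the organs parted: 1 naive-like cluster held 76 and 33 kidney cells and 3 and 1 spleen cells, and the other 14 and 7 kidney cells and 672 and 559 spleen cells. Of the 2 clusters led by Ifitm2 among others in that setting, 1 held 385 and 94 kidney cells and 6 and 2 spleen cells, and the other 36 and 11 kidney cells and 212 and 205 spleen cells. Whether kidney and spleen cells of a group are the same kind of cell was not tested.

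Crem was at 265 and 379 CPM in kidney naive-like cells against 30.9 and 29.5 in spleen, and at 286 and 295 against 28.7 and 31.3 in cluster 1. The log2 differences of Ramp3 were 3.19 in naive-like cells and 3.19 in cluster 1, those of Fosl2 2.86 and 2.85, and those of Rgs1 2.19 and 1.90. Jun differed by -1.84 and -2.02, Fos by -1.41 and -1.25, and Ccr7 by 1.26 and 1.27. Cd69, not called in the full sums, differed by -0.51 and -0.50. All of these were called in both groups of cells. In contrast, Ifng differed by -0.32 in cluster 1 and was not called there, and Ctsw, a cathepsin of cytotoxic cells with a log2 difference of 1.06 in the full sums, by 0.08. Of the cytotoxic list 3 of 10 were higher in cluster 1 and 1 lower, with a median of -0.04. Ifng and Ctsw were also not called when mouse 1 was left out of the full sums. Naive-like kidney cells also held Cd8a, at 33.8 and 49.3 CPM against 3.43 and 0.428 in spleen, whereas in cluster 1 Cd8a was at 25.7 and 20.9 against 17.9 and 31.3.

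**Figure D5:**
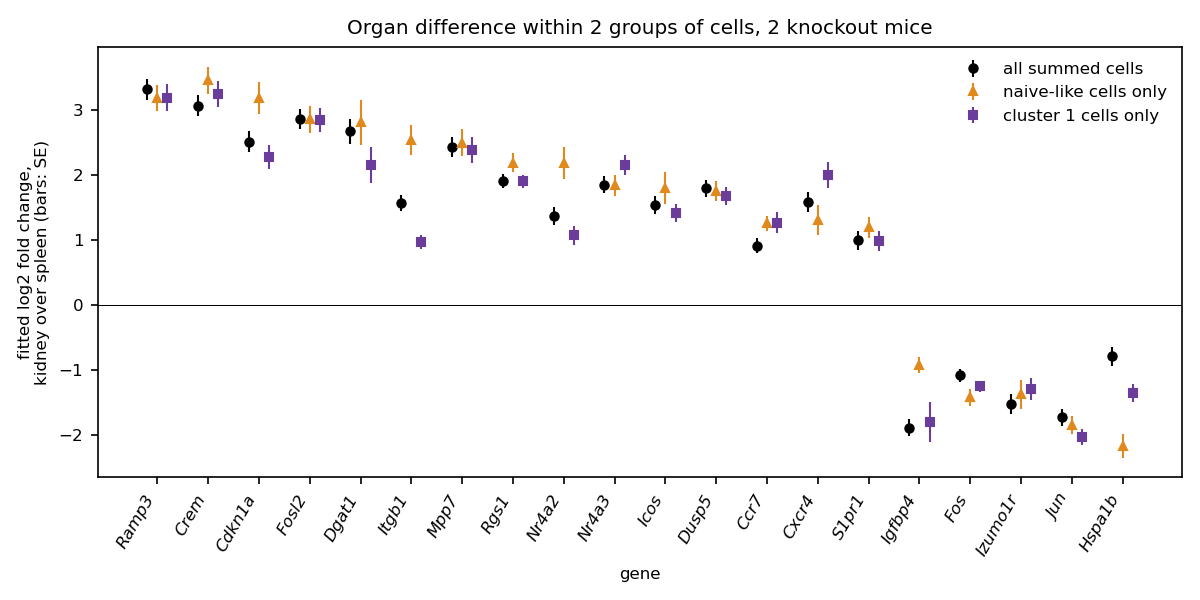
Fitted log2 fold change, kidney over spleen, with standard errors, for 20 genes in all summed cells (black circles), naive-like cells (orange triangles) and cluster 1 cells (purple squares). Ramp3, Crem and Fosl2 lie near or above 2.85 in all 3, Jun between -2.02 and -1.72, and Hspa1b lies at -0.78 in all cells and at -2.16 in naive-like cells.

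Whether the organ difference depended on genotype was tested with an interaction term over the 10 first-day sums, the organ difference in 2 KO mice minus that in 3 floxed mice. It was called for 1 of 11847 genes (0.00844%), Dsp, which is given in the closing section, while 869 genes had an unadjusted p under 0.05. Of the 1146 genes called higher in KO kidney, 96.8% were also higher in floxed kidney, and of the 535 called lower, 95.1% were also lower, against 76.1% with the same direction over all 10699 genes. Ramp3 differed by 3.31 in KO and 4.41 in floxed mice in this fit, and Crem by 3.06 and 3.13. Fasl differed by 2.14 in KO and 0.88 in floxed mice, with an unadjusted interaction p of 1.82e-05 and an adjusted p of 0.108 (edgeR), so the difference did not pass. A miss with 2 against 3 mice does not show that the organ difference was alike in both genotypes.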

How the data were processed

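The authors deposited whole UMI counts per gene and antibody tag for each barcode, 1 matrix per organ, with 32285 gene rows and no normalization recorded; the tag key was deposited separately. The submitters' processing notes list Seurat 5.0.1 and Cell Ranger 7.1.0, with GRCm38 (mm10) as the build. Settings were not given in the sources used here. Tag numbers in the matrices were joined to the key by its order, an assumption the files do not state. The 8 second-day blocks entered no comparison: all were led by HTO1, 6 held the same 2399 barcodes and the other two held 2148 and 981 of these, and T cell receptor sequences were not analysed here. No doublet caller was run.

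Sums of counts per mouse and organ went into edgeR 4.0.16 under R 4.3.3 (quasi-likelihood, TMM, filterByExpr, mouse as a block, Benjamini-Hochberg at 0.05). Kidney and spleen sums are paired because the key gives both organs to the same animal. The correlation of their deviations from the organ means was -0.00031 over 10699 genes. Clusters used igraph 0.11.9 (Leiden, resolution 1, 2000 variable genes, 30 principal components, seed 0). A cluster took a name if 3 or more of that name's markers were raised, their mean log2 fold reached 1 and 1 or more stood among its 10 leading genes. Clusters with 2 or more other-cell genes among their 10 leading genes were left out.

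The scripts were tested on simulated counts. Named genes were the 15 largest rises and 15 largest falls among called genes that moved alike in both mice with at least 20 CPM in the higher organ, up to 6 called and 2 uncalled members of each list, and Ezh2. The members and lists were chosen with earlier results of these data known. DESeq2, other scalings, filters, cell sets, a thinned depth and leaving out each mouse were the alternatives. A few genes of the lists are not reported here by name.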

Additional observations from a re-analysis of the deposited data

Results flagged for a closer look

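Dsp, which encodes the desmosomal linker desmoplakin, was the gene whose organ difference was called as differing between genotypes. It was at 12.9 and 13.4 CPM in kidney of the KO mice against 5.82 and 5.34 in spleen, and at 7.90, 1.05 and 0.949 CPM in kidney of the floxed mice against 36.9, 4.64 and 4.25 in spleen, all 10 sums scaled together. The organ difference was 1.21 in KO mice and -2.19 in floxed mice on the log2 scale, and the KO difference minus the floxed difference was 3.40 ± 0.39 (SE; edgeR interaction test, adjusted p = 0.0345). Kidney lay above spleen in both KO mice and below it in all 3 floxed mice. Dsp was below the level set for naming genes, and its difference was called in 1 of the 5 fits that left out a mouse, the one without floxed mouse 2 (edgeR, adjusted p from 0.0257 to 0.348 over the 5). It was not called without naive-like cells or with no replicate block either (edgeR, adjusted p = 0.128 and 1.00). The count of genes called by this test ran from 0 to 30 as 1 mouse at a time was left out.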

How the results depend on the processing

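The count of 1681 genes called ran from 1231 to 1720 under the 7 alternatives that moved it by less than 1.5 times and was, under the others, 828 with library totals, 670 with sums thinned to the smallest, 408 with DESeq2, 897 without naive-like cells, 861 in naive-like cells only and 997 in cluster 1 only. Without the replicate block, that is without the pairing by mouse, 1295 genes were called. Leaving out mouse 1 or mouse 2 gave 292 to 421. The share of called genes that were higher in kidney was 68.2% in the main setting and 60.02% with library totals. The interaction count of 1 became 5 with library totals, 10 with DESeq2, 179 with no filter on low counts, 4 with all cells and 0 without naive-like cells (edgeR; 563 at an unadjusted p under 0.05) or with no replicate block (361), and ran from 0 to 30 as each mouse was left out. The difference of the unnamed share, 39.8 points, became 46.0 points when all genes were used to cluster and 35.4 at resolution 1.5. Of 132 named genes called, 29 were called under every alternative on all cell types. Values that reversed, as log2 differences, were as follows. In naive-like cells only, Cd40lg was -0.38, Cd74 0.70, Egr2 0.22, Ikzf2 0.83, Selplg -0.15 and Tnfrsf9 0.83. In cluster 1 only, Ccl5 was -0.20, Ifng -0.32, Klrc1 -0.17, Klrd1 -0.87, Slamf6 -0.16 and Tnfrsf9 0.45. Without mouse 1 and without mouse 2, in that order, Hspa1b was 0.062 and -1.61, Igfbp7 -0.27 and 1.48, Pdcd1 -0.25 and 1.09, Tigit -0.30 and 1.01, Traf1 -0.028 and 0.97, Lag3 -2.47 and 0.10, and Selplg 0.79 and -0.049. Without naive-like cells Ccl4 was -0.57 and Tigit -0.028, without cells with a CD8 UMI Ccl4 was -0.98, and with all cells Prf1 was 0.98. The cause of these changes was not tested. Depth limits the kidney of mouse 2 most, with 790712 UMIs.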

Other observations

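Calca, which encodes calcitonin and the neuropeptide CGRP, was chosen after its values were seen, because Ramp3, the gene with the smallest p in the organ comparison, encodes a partner of the receptor for this peptide family. Calca was at 16.9 and 22.8 CPM in KO kidney, from 41 and 17 UMIs, and had 0 UMIs in both KO spleen sums. Its mean in kidney, 19.8 CPM, was at least 79.7-fold higher than the level of 3 counts over the 2 spleen sums, and just under the 20 CPM set for naming genes. In floxed mice, all 10 sums scaled together, Calca was at 6.59, 9.27 and 12.03 CPM in kidney against 1.08, 0 and 1.21 in spleen. The difference between genotypes was not called (edgeR, adjusted p = 0.400). Calcrl, the receptor that pairs with RAMP proteins, was at 9.89 and 6.70 CPM in KO kidney against 16.0 and 13.9 in spleen and was not called, and Ramp1, the CGRP-specific partner, was lower in kidney, at 42.9 and 46.9 against 81.3 and 78.1, though not called when either mouse was left out.

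Some called genes rested on 1 animal and were also chosen after their values were seen. The immunoglobulin segment Ighv1-81 was at 264 CPM in the spleen of mouse 2 against 8.72 in the spleen of mouse 1 and 13.6 and 2.68 in kidney. Ccl1 was at 31.7 CPM in the kidney of mouse 1 and at 0 in that of mouse 2, against 2.41 and 4.95 in spleen, so the 2 mice moved in opposite directions although the gene was called.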
